A study of Triticum aestivum with 12 samples.

Results

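In the roots of both wheat varieties, 115 of 61179 probe sets (0.188%) were lower at low phosphorus (LP) than at conventional phosphorus (CP). A probe set is a group of short array probes that together read 1 transcript or a family of similar transcripts. The 115 were selected on measured values. The mean of the 3 LP arrays minus the mean of the 3 CP arrays was at most -0.7 on the log2 scale in Xindong20 and also in Xindong23, and within each variety the highest LP array lay below the lowest CP array. The LP minus CP values below therefore describe the selection and carry no test. The same rule with the signs turned selected 132 probe sets, and leaving out the condition on overlap gave 479, of which the 115 are 24%. All 3 LP arrays lay below all 3 CP arrays in both varieties for 565 probe sets, or 0.924% of those on the array, whatever the size of the difference.

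The 4 groups compared were winter wheat (Triticum aestivum) seedlings, each group with 3 arrays of root RNA that the series design calls biological replicates. They were Xindong20 at LP, Xindong20 at CP, Xindong23 at LP and Xindong23 at CP. LP plants received 0.05 mmol/L phosphorus in Hoagland nutrient solution, with potassium chloride in place of part of the potassium phosphate, and CP plants received 1.0 mmol/L. After 14 days of culture, the plants of every group, CP included, were kept for 7 days in solution with 15% polyethylene glycol, a polymer that lowers the water potential around the root and so imitates drought. No plants without this treatment were analysed here, and both varieties are compared only under drought. Arrays are written by variety, phosphorus level and replicate number, such as Xindong20 LP3.

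Phosphorus reaches the root as inorganic phosphate, which is taken up by transporters in the plasma membrane and used for nucleic acids, phospholipids and ATP. When phosphate runs short, plants release MYB transcription factors of the PHR type from inhibition by SPX proteins, and these factors raise the transcripts of phosphate transporters and phosphatases. Transcripts that decline in phosphate-starved roots are less uniform; in Arabidopsis they include genes of iron uptake. None of the 115 probe sets could be placed among these functions here. The platform annotation paired 1273 of the 61179 probe sets (2.08%) with exactly 1 gene, and 0 of the 115 were among them. The probe sets are therefore given by ID, with no gene name, function or sequence. IDs that begin with Ta or TaAffx stand for wheat transcript clusters, and the endings tell what the probes match. The ending _at marks probes designed for 1 transcript, _a_at marks probes shared by transcripts of 1 gene, and _s_at and _x_at mark probes that can also match other transcripts.

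The 2 LP arrays numbered 3 stood apart from the other arrays in 1 control, and all LP arrays stood apart from CP in another. The 3' minus 5' difference of the ubiquitin control probe sets, which grows when RNA is shortened or copied incompletely, was 2.84 on Xindong20 LP3 and 1.16 on Xindong23 LP3 (log2 difference), while the other 10 arrays gave -0.88 to -0.19. The 24 probe sets of the poly-A spikes, bacterial transcripts added to the RNA before labelling, averaged 4.79 ± 0.87 at LP and 7.00 ± 0.54 at CP in Xindong20 (log2 intensity, SD, n = 3 arrays each). In Xindong23 they averaged 5.32 ± 0.93 at LP and 6.80 ± 0.25 at CP. Their lowest values, 3.79 and 4.298, were those of Xindong20 LP3 and Xindong23 LP3. LP1 and LP2 also lay below every CP array of their variety. In Xindong20 they read 5.25 and 5.34, and the lowest CP array read 6.45. In Xindong23 they read 6.11 and 5.56, and the lowest CP array read 6.56. Leaving out LP3 therefore does not remove the difference in the spikes. The spikes were thus lower at LP in the same arrays as the 115 probe sets, and the part of RNA quality and labelling in the differences below was not tested. The median over all probe sets ran from 4.24 to 4.33 across the 12 arrays.

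By selection, the median level of the 115 probe sets was lower on every LP array than on every CP array of the same variety. In Xindong20 it was 6.34 on LP1, 6.27 on LP2 and 5.58 on LP3, against 7.37, 7.09 and 7.31 on the 3 CP arrays (log2 intensity). In Xindong23 it was 6.91, 6.69 and 6.16 on the 3 LP arrays, against 7.53, 7.70 and 7.60 on the 3 CP arrays. LP3 was the lowest LP array in both varieties. That the remaining LP arrays also lay below the CP range follows from the selection. In whole roots, a smaller share of the cells that make a transcript and less of the transcript in each cell cannot be told apart.

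The differences were mostly moderate and of similar size in both varieties. The selection bounded them at -0.7 in each, so this likeness is not a result about the varieties. The median LP minus CP difference of the 115 probe sets was -1.06 in Xindong20 (range -4.22 to -0.70) and -0.996 in Xindong23 (range -3.27 to -0.70), while over all probe sets the medians were -0.05 and 0.03. The difference was -1 or below in 69 probe sets in Xindong20, in 56 in Xindong23 and in 40 in both, and it stayed above -1 in both varieties for 30. It was -2 or below in 10 probe sets in Xindong20 and in 3 in Xindong23, and Ta_21258_2_S1_at was the 1 probe set below -2 in both. The larger difference was in Xindong20 for 65 probe sets and in Xindong23 for 50, and 47 had values within 0.2 of each other in the 2 varieties. For 57 probe sets all 6 LP arrays lay below all 6 CP arrays with the varieties pooled, and for 58 the pooled LP and CP ranges overlapped.

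The probe sets were brighter than most of the array. Their mean level over 12 arrays had a median of 6.94 (log2 intensity), against 4.31 for all probe sets, and 109 of the 115 lay above that overall median. Background limits how far a dim probe set can fall, and the part of the selection in this was not tested. An LP mean was called dim when it lay below the lowest array median of 4.24, a limit that is not a measured background. This held for 13 probe sets in Xindong20 and 12 in Xindong23, and in both varieties for 9. Background may limit such a mean, so a difference against it may be a lower bound on its size.

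The largest average difference belonged to Ta_7543_1_S1_at, and most of it came from 2 arrays. In Xindong20 this probe set read 9.69, 4.50 and 3.88 on LP1, LP2 and LP3, against 10.37, 10.19 and 10.17 at CP (log2 intensity). In Xindong23 it read 9.30, 9.60 and 8.99 at LP and 9.98, 10.14 and 10.20 at CP. The Xindong20 LP1 array was close to the CP arrays and the other 2 LP arrays were more than 5 log2 units below it, whereas the Xindong23 LP arrays lay close together and just below CP. The LP minus CP difference was -4.22 in Xindong20 (LP 6.02 ± 3.19, CP 10.24 ± 0.11; SD, n = 3 each) and -0.81 in Xindong23 (LP 9.30 ± 0.30, CP 10.10 ± 0.11).

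The same split among the Xindong20 LP arrays occurred in 4 further probe sets, so that LP1 exceeded both LP2 and LP3 by more than 1 in 5 of the 115. Ta_16175_1_A1_x_at read 9.29, 4.95 and 6.77 at LP and 9.72, 9.84 and 9.71 at CP in Xindong20. TaAffx_14477_1_S1_at read 8.90, 6.09 and 5.91 at LP and 9.68, 9.45 and 9.76 at CP in the same variety. Ta_10914_1_S1_at read 7.90, 4.78 and 5.51 at LP and 8.97, 8.27 and 8.74 at CP there. In all of these the Xindong20 LP spread (SD 2.18, 1.68 and 1.63) was several times that of Xindong20 CP (0.07, 0.16 and 0.36), and the lowest array was LP2 for 2 of them, not LP3. Their LP minus CP differences were -2.75, -2.66 and -2.60 in Xindong20, and -1.07, -0.98 and -0.81 in Xindong23. The fifth, Ta_16175_1_A1_at, shares its cluster number with Ta_16175_1_A1_x_at and is given with it below.

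In 3 others of the 12 with the largest average difference, CP lay above LP in both varieties without such a split among the LP arrays. Ta_13821_1_S1_at read 8.05, 8.03 and 7.88 at LP and 10.82, 8.66 and 9.86 at CP in Xindong20. In Xindong23 it read 8.92, 9.20 and 8.67 at LP and 10.44, 11.28 and 10.80 at CP. The spread lay on the CP side in Xindong20, where CP2 was less than 1 above the LP arrays, and the differences were -1.79 in Xindong20 and -1.91 in Xindong23. Ta_21427_1_S1_at was at the dim end of the array at LP, with 2.06, 2.18 and 2.09 at LP against 4.70, 3.14 and 3.96 at CP in Xindong20, and 2.61, 2.71 and 2.18 against 5.06, 5.45 and 5.17 in Xindong23. Its difference of -2.73 in Xindong23 may be a lower bound on the size. In Xindong20 (-1.82) the CP mean of 3.93 was dim too, so that the size there is uncertain. Ta_5603_1_A1_at read 3.89, 3.72 and 4.75 at LP and 6.07, 4.91 and 6.30 at CP in Xindong20, and 4.07, 3.41 and 2.97 at LP and 6.01, 6.67 and 7.60 at CP in Xindong23. It had the most negative value of any of the 115 in Xindong23 (-3.27) and -1.64 in Xindong20. Both may be lower bounds on the size because the LP means were dim.

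Another form was a low LP3 array beside LP1 and LP2 arrays that lay nearer to CP. TaAffx_12966_1_S1_s_at read 6.38, 6.12 and 4.15 at LP and 7.91, 7.35 and 7.40 at CP in Xindong20, and 6.86, 6.60 and 4.73 at LP and 7.33, 7.82 and 7.74 at CP in Xindong23. Ta_21705_2_S1_a_at read 5.90, 6.002 and 2.28 at LP and 7.01, 6.89 and 7.01 at CP in Xindong20, and 6.99, 6.38 and 4.96 at LP and 7.07, 7.63 and 7.36 at CP in Xindong23. With all arrays the differences of the first were -1.999 in Xindong20 and -1.56 in Xindong23, and without LP3 they were -1.30 and -0.90. For the second they were -2.24 and -1.24 with all arrays, and -1.02 and -0.67 without LP3.

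At the other end were probe sets whose arrays hardly differed within a group. TaAffx_29105_1_S1_at had the least spread of the 115 and read 7.28, 7.50 and 7.42 at LP and 8.34, 8.13 and 8.30 at CP in Xindong20, and 7.34, 7.34 and 7.33 at LP and 8.16, 8.34 and 8.50 at CP in Xindong23. All 6 LP arrays lay below all 6 CP arrays, with a difference of -0.86 in Xindong20 and -0.996 in Xindong23. Values without LP3 were almost the same, at -0.87 and -0.99. The next in spread were TaAffx_102558_1_S1_at (differences -0.81 and -0.91), Ta_11365_1_A1_at (-0.93 and -0.83) and TaAffx_36766_1_A1_at (-1.41 and -0.94). The 3 LP arrays lay within 0.5 of each other in both varieties for 10 of the 115 probe sets.

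The 4 brightest probe sets were Ta_28651_1_S1_at, Ta_1514_1_S1_x_at, Ta_5284_1_S1_x_at and Ta_22768_1_S1_at, with mean levels of 10.86, 10.57, 10.53 and 10.50. Ta_1514_1_S1_x_at read 10.77, 10.67 and 7.75 at LP and 11.38, 11.16 and 11.14 at CP in Xindong20, and 10.64, 10.93 and 9.06 at LP and 11.02, 11.12 and 11.15 at CP in Xindong23. LP1 and LP2 were within 1 of the CP arrays in both varieties, and the differences of -1.49 and -0.89 became -0.50 and -0.31 without LP3. Without LP3, 0 of the 4 brightest probe sets had a difference of -0.7 or below in both varieties. Ta_5284_1_S1_x_at (-0.71 and -0.73) also lay just inside the threshold, together with Ta_10301_1_A1_at (-0.70 and -0.71) and Ta_24300_1_S1_at (-0.90 and -0.70). Just outside it were Ta_12804_1_A1_at, Ta_25709_1_A1_at and Ta_6303_1_S1_at, whose weaker difference was -0.6992, -0.6948 and -0.6941.

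LP3 was the lowest LP array for 85 of the 115 probe sets in Xindong20 and for 88 in Xindong23. It lay more than 1 below both other LP arrays for 47 in Xindong20, for 23 in Xindong23 and for 21 in both. Without the 2 LP3 arrays the median difference of the 115 was -0.84 in Xindong20 and -0.85 in Xindong23. A difference of -0.7 or below in both varieties was then kept by 58 probe sets, 9 of the 12 with the largest average difference among them. For these 58 the median differences were -1.13 and -1.12 with all arrays and -1.06 and -1.02 without LP3. For the other 57 they were -1.01 and -0.91 with all arrays, and -0.50 and -0.65 without LP3. The values without LP3 define the 2 sets, so the gap between them there follows from the split. IDs beginning with TaAffx made up 14 of the 58 and 26 of the 57.

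Several probe sets read the same transcript cluster, by the number in their IDs. The 115 belonged to 100 clusters, of which 11 held more than 1 of them, 26 probe sets in all, so these are not independent measurements. Cluster Ta_6307 held 4. Its probe set Ta_6307_1_S1_a_at read 8.45, 8.00 and 8.19 at LP and 9.58, 8.90 and 9.33 at CP in Xindong20, and 8.62, 8.71 and 8.71 at LP and 9.72, 9.68 and 9.41 at CP in Xindong23. The differences in this cluster ran close together: Ta_6307_1_S1_a_at gave -1.06 and -0.92, Ta_6307_2_S1_x_at -1.10 and -0.88, Ta_6307_1_S1_x_at -1.11 and -0.90, and Ta_6307_3_S1_x_at -0.86 and -0.95. Cluster Ta_10838 held 3, with differences of -0.95 and -0.90 for Ta_10838_1_S1_at, -1.13 and -1.11 for Ta_10838_1_S1_x_at, and -1.31 and -1.22 for Ta_10838_2_A1_x_at. Cluster Ta_23791 also held 3, with -1.22 and -1.02 for Ta_23791_1_S1_a_at, -1.40 and -0.98 for Ta_23791_1_S1_x_at and -0.75 and -0.88 for Ta_23791_2_S1_x_at.

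Array patterns were shared by some pairs from 1 cluster and differed in others. Ta_16175_1_A1_at read 9.26, 6.27 and 7.33 at LP and 9.67, 9.79 and 9.62 at CP in Xindong20, with the high LP1 array of its partner Ta_16175_1_A1_x_at, and 9.62, 9.11 and 9.30 at LP and 10.26, 10.21 and 10.41 at CP in Xindong23. Its differences were -2.07 and -0.95. Both probe sets of cluster Ta_21258 were among the 12 largest. Ta_21258_2_S1_at read 4.94, 5.29 and 6.68 at LP and 8.68, 7.54 and 7.65 at CP in Xindong20, and 6.31, 6.08 and 5.99 at LP and 7.49, 8.20 and 8.98 at CP in Xindong23. Here Xindong20 LP3 was the highest LP array, opposite to most of the 115, and the difference without LP3 was -2.84 against -2.32 with it. In Xindong23 the values were -2.03 without LP3 and -2.10 with it. Its partner Ta_21258_3_S1_a_at read 3.99, 4.99 and 4.17 at LP and 6.92, 6.38 and 5.90 at CP in Xindong20, and 5.91, 5.25 and 4.35 at LP and 6.47, 6.68 and 7.24 at CP in Xindong23. In Xindong20 its highest LP array was LP2, not LP3, and its differences were -2.02 in Xindong20 and -1.63 in Xindong23. In cluster Ta_18922 both probe sets had low LP3 arrays: Ta_18922_2_S1_at read 5.52, 6.13 and 3.04 at LP and 6.19, 6.30 and 6.34 at CP in Xindong20, and 5.96, 5.81 and 3.09 at LP and 6.34, 6.40 and 6.14 at CP in Xindong23. Without LP3 its differences of -1.38 and -1.34 became -0.46 and -0.41.

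The LP minus CP differences of the remaining pairs lay between -1.55 and -0.85. Ta_5304_1_S1_at and Ta_5304_1_S1_x_at had -1.51 and -1.55 in Xindong20, and -1.55 and -1.36 in Xindong23. Ta_18304_1_S1_at and Ta_18304_1_S1_x_at had -1.26 and -1.01 in Xindong20, and -1.03 and -1.13 in Xindong23. For Ta_25022_1_S1_x_at and Ta_25022_1_S1_at the values were -0.95 and -0.85, and -1.19 and -1.08. For TaAffx_88122_3_S1_at and TaAffx_88122_1_S1_s_at they were -1.02 and -0.90, and -1.20 and -0.92. For TaAffx_111620_2_S1_x_at and TaAffx_111620_2_S1_s_at they were -0.96 and -1.10, and -1.27 and -0.996, with LP arrays in Xindong23 at 4.50, 4.59 and 4.03 for the first and 5.02, 4.85 and 2.81 for the second. Of the 26 probe sets in shared clusters, 16 kept a difference of -0.7 or below in both varieties without LP3.

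Other probe sets of the same clusters were not part of the selection, and most also read lower at LP. There were 51 of them, of which 40 (78.4%) had a negative difference in both varieties, against 23.7% of all 61064 probe sets outside the 115. Their average difference had a median of -0.55, against -0.02 outside the 115, and 3 of the 51 (5.88%) were at -0.7 or below in both varieties, against 0.596%. These probe sets share transcript sequence with the selected ones, so the counts describe agreement of probes on the same arrays. Ta_21488_1_A1_x_at was the most negative, with -3.31 in Xindong20 and -3.11 in Xindong23, but its arrays overlapped: it read 2.62, 2.11 and 5.92 at LP and 7.29, 7.50 and 5.78 at CP in Xindong20, and 3.33, 4.93 and 3.38 at LP and 6.64, 5.09 and 9.26 at CP in Xindong23. In Xindong20 its LP3 array lay above CP3, which kept it out. Its selected partner Ta_21488_1_A1_at, dim at LP in both varieties and also at CP in Xindong20, had -0.87 and -1.69. A total of 63 clusters held no other probe set on the array.

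By ID, 75 of the 115 (65.2%) began with Ta and 40 (34.8%) with TaAffx, against 51.4% and 48.5% of all probe sets. The ending _at was carried by 83 (72.2%, against 79.2% of all), _x_at by 17 (14.8%, against 11.1%), _a_at by 8 and _s_at by 7. The 24 with the endings _x_at and _s_at may read several related transcripts, including copies from the different wheat subgenomes.

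The selection did not use the difference between varieties averaged over phosphorus levels, and this was tested with limma on all 12 arrays. The variety difference, Xindong20 minus Xindong23, was called at an adjusted p under 0.05 (Benjamini-Hochberg over all 61179 probe sets) in 10 of the 115 probe sets (8.70%), of which 3 were higher and 7 lower in Xindong20. Over the whole array 1.82% of probe sets were called, 0.853% as higher and 0.964% as lower in Xindong20. The 115 were brighter than most probe sets and varied more between replicates (median of the mean SD per group 0.43, against 0.24 for all), so their share and the array's are not matched. The median variety difference of the 115 was -0.38, against 0.03 for all probe sets, and it was negative in 94 (81.7%, against 44.4% of all). At an unadjusted p under 0.05 the average difference passed in 46 of the 115, against 11.6% of all probe sets. In the same fit to all 12 arrays, 6 of the 115 were called at CP (2.35% of all), 6 at LP (0.899% of all) and 5 at both. These contrasts share group means with the LP minus CP differences, so unlike the average they are not free of the selection.

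The probe set with the widest gap between varieties was Ta_3242_3_A1_at. It read 8.99, 8.82 and 9.09 at LP and 10.41, 9.43 and 9.98 at CP in Xindong20, but 1.71, 2.02 and 1.65 at LP and 2.43, 2.35 and 2.76 at CP in Xindong23. All Xindong23 arrays were dim, so the variety difference of 7.30 (SE 0.16, limma adjusted p = 2.7e-08) may be a lower bound. The LP minus CP difference was -0.97 in Xindong20, and the -0.72 in Xindong23 lies wholly within the dim range. Other probe sets of the cluster did not all share this gap. Ta_3242_1_A1_a_at averaged 8.88 at LP and 10.61 at CP in Xindong20 and 4.73 at LP and 4.58 at CP in Xindong23, whereas Ta_3242_2_S1_at averaged 8.25, 8.04, 8.38 and 8.41 in the same order.

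The other probe sets that were higher in Xindong20 were Ta_21556_1_S1_at and Ta_21633_1_S1_a_at. Ta_21556_1_S1_at read 5.91, 6.43 and 4.74 at LP and 6.98, 8.70 and 8.87 at CP in Xindong20, and 3.61, 4.85 and 3.91 at LP and 5.56, 5.16 and 5.01 at CP in Xindong23. Its variety difference was 2.26 (SE 0.39, limma adjusted p = 0.0160), which may be a lower bound because its Xindong23 LP mean was dim. Its Xindong20 LP arrays and Xindong23 CP arrays overlapped. Ta_21633_1_S1_a_at had a difference of 0.85 (SE 0.18, limma adjusted p = 0.0483), with means of 8.24 ± 0.45 at LP and 9.73 ± 0.16 at CP in Xindong20 and 7.65 ± 0.43 at LP and 8.63 ± 0.19 at CP in Xindong23.

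Ta_28701_1_A1_at led the 7 that were lower in Xindong20. It read 5.85, 5.91 and 6.12 at LP and 6.78, 6.92 and 7.06 at CP in Xindong20, and 8.02, 7.60 and 8.05 at LP and 9.04, 9.62 and 10.07 at CP in Xindong23. Every Xindong23 LP array lay above every Xindong20 CP array, and the variety difference was -2.29 (SE 0.17, limma adjusted p = 3.36e-05). TaAffx_114431_1_S1_s_at showed the same order, with 5.33, 5.74 and 4.65 at LP and 6.44, 6.83 and 6.69 at CP in Xindong20, and 7.22, 7.06 and 6.96 at LP and 8.36, 9.03 and 9.49 at CP in Xindong23. Its variety difference was -2.07 (SE 0.22, limma adjusted p = 0.000612). In both of these the LP minus CP difference was also the larger in Xindong23, at -1.69 against -0.96 in Xindong20 for the first and -1.88 against -1.42 for the second, but the selection bounded both values and the gap was not tested.

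The next 4 were smaller or dim. TaAffx_133453_2_S1_at had a variety difference of -1.27 (SE 0.14, limma adjusted p = 0.000849), with means of 5.95 ± 0.22 at LP and 7.02 ± 0.23 at CP in Xindong20 and 7.13 ± 0.19 and 8.38 ± 0.33 in Xindong23. For Ta_10504_1_S1_at it was -1.18 (SE 0.16, limma adjusted p = 0.00379) and for Ta_10309_1_A1_at -1.08 (SE 0.20, limma adjusted p = 0.0200). Ta_26902_1_S1_at gave -1.64 (SE 0.25, limma adjusted p = 0.00680), with both Xindong20 means and the Xindong23 LP mean dim, so that its size is uncertain. The seventh, Ta_25022_1_S1_x_at, gave -0.63 (SE 0.13, limma adjusted p = 0.0431). Ta_3242_3_A1_at, Ta_28701_1_A1_at, TaAffx_114431_1_S1_s_at, TaAffx_133453_2_S1_at, Ta_10504_1_S1_at and Ta_26902_1_S1_at kept an adjusted p under 0.05 in every alternative setting in which they were tested. Ta_25022_1_S1_x_at lost its call without both LP3 arrays (adjusted p = 0.0596) and without any 1 of the 12 arrays, with an adjusted p of up to 0.127. It also lost it with a trended variance (0.0875) and after quantile normalization (0.0574). Ta_21633_1_S1_a_at kept its call without Xindong20 LP3 or Xindong23 LP1 and lost it without any other single array (up to 0.140), with a trended variance (0.0691) and after median centring (0.0529). Ta_10309_1_A1_at lost its call without Xindong20 CP1, Xindong20 CP2, Xindong23 LP3, Xindong23 CP2 or Xindong23 CP3 (up to 0.0678). Ta_21556_1_S1_at lost its call without Xindong20 CP2, Xindong23 CP2 or Xindong23 CP3 (up to 0.0549).

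The fit's own calls for LP against CP are given only for completeness, since the selection used these contrasts. Of the 115, 19 were called as lower at LP in Xindong20 (0.776% of all probe sets), 0 in Xindong23 (0% of all) and 29 in the average of both varieties (0.0948% of all). In Xindong23 the smallest limma adjusted p among the 115 was 0.0608, and 80 had an unadjusted p under 0.05 with a lower value at LP, against 3.79% of all probe sets. Nothing is read from these counts.

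The gene lists held no probe set from among the 115. This was fixed in advance, because the lists match only annotated probe sets and none of the 115 is annotated. Of 12 lists for root nutrition, drought, growth and other tissues, 9 matched annotated probe sets, 87 in all, and the lists for phosphate, for nitrate and ammonium, and for aquaporins had 0. Across the 87, limma called 0 in Xindong23 and 0 in the average of both varieties. In that average, 9 had an unadjusted p under 0.05 with a lower value at LP (10.3%, against 6.12% of all probe sets). With a higher value there were 9, against 2876 of all 61179. In Xindong20, 1 probe set of the antioxidant list and 1 of the methionine and methylation list were called as lower at LP (0.776% of all probe sets). The first, Ta_6572_1_S1_a_at of LOC606328, had -0.90 (limma adjusted p = 0.0374) in Xindong20 and 0.09 in Xindong23. The other probe sets of that gene had 0.005, 0.08 and -0.17 in Xindong20. The second had -0.88 (limma adjusted p = 0.0402) in Xindong20 and 0.15 in Xindong23, so neither was lower at LP in both varieties. The 31 photosynthesis probe sets, markers of leaf tissue, stand for only 3 genes, and most of them read LOC100049018. Their average difference had a median of -0.06 and ran from -0.73 (TaAffx_128414_1_A1_x_at, limma adjusted p = 0.341) to 0.34 (Ta_85_1_S1_at). The 7 grain storage probe sets, also from 3 genes, had a median of 0.10.

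Among annotated probe sets, 19 had a difference of -0.7 or below in both varieties but did not meet the condition on overlap. Another 6 had LP below CP without overlap in both varieties but missed -0.7 in Xindong23. Of these 6, Ta_28364_1_S1_at came nearest to -0.7 by its weaker difference. The annotation pairs it with HA1, a proton-pumping ATPase of the kind that energises nutrient uptake across the root plasma membrane. This probe set read 11.94, 12.002 and 9.65 at LP and 12.36, 12.15 and 12.20 at CP in Xindong20, and 11.91, 12.07 and 11.003 at LP and 12.15, 12.20 and 12.09 at CP in Xindong23. Only LP3 was far below CP, and the differences were -1.04 (SE 0.54, limma adjusted p = 0.338) in Xindong20 and -0.48 (limma adjusted p = 0.999) in Xindong23, neither of which passed the test.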

How the data were processed

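RNA from roots was measured on 12 Affymetrix wheat arrays, 3 in each of 4 groups. The authors deposited 1 table of normalized log2 intensities. Per the submitters' processing notes, Affymetrix Expression Console 1.4.1 and RMA were among the tools, with no order given. RMA removes background, gives arrays a common distribution and summarises probes, so a shift shared by most transcripts is removed. That the scale is log2 was inferred from the values, since no source states it. The probe set library is not given in the sources used here.

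Neither the selection nor the tests used the 111 control probe sets, and no filter was applied to the other 61179. limma 3.58.1 in R 4.3.3 (lmFit, eBayes) was fitted to all 12 arrays with 1 mean per group (8 residual degrees of freedom, prior 2.28). Tests were two-sided, with Benjamini-Hochberg adjustment over all 61179 probe sets per contrast, and the script was tested on simulated data. The p-values measure the spread among these arrays, and the number of arrays limits precision. The variety contrast averaged over phosphorus is orthogonal to both LP minus CP differences in the balanced fit, but its residual variance is not wholly free of the selection.

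The members and gene lists were chosen with earlier results of these data known. Probe sets were named by these rules: any with 1 annotated gene, the 12 with the most negative average difference, the 4 with the least spread, the 4 brightest, up to 6 called for variety in each direction, 3 just inside and 3 just outside the threshold, and those that share a cluster number. Exceptions, named after their values were seen, are Ta_25022_1_S1_x_at as a variety call, Ta_21488_1_A1_x_at and its partner, the other probe sets of cluster Ta_3242 and HA1. Dots in IDs are printed as _. Alternatives were quantile normalization, median centring, a filter on dim probe sets, a trended variance, a replicate block, the arrays of 1 phosphorus level alone, other thresholds, and leaving out both LP3 arrays or each array in turn.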

Additional observations from a re-analysis of the deposited data

How the results depend on the processing

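The number of probe sets that met the selection rule was 115 with the settings used and 235 with a threshold of -0.5, 40 with -1 and 479 with no condition on overlap. It was 162 without both LP3 arrays (58 of the 115 among them), 137 after quantile normalization (100 shared) and 105 after median centring (97 shared). Leaving out 1 array at a time gave 92 to 224, with 224 without Xindong23 LP1 and 208 without Xindong20 CP2. The condition on overlap is easier to meet with fewer arrays, so the counts with arrays left out are not matched to 115. The count called for variety on average, 10 (1.82% of all probe sets), was 17 without both LP3 arrays (9 of the 10 among them; 3.15% of all) and 6 to 15 without 1 array (1.1% to 3% of all), with 6 without Xindong20 CP2, Xindong23 CP2 or Xindong23 CP3. Within CP the count of 6 was 23 without both LP3 arrays (10.2% of all probe sets were then called) and 26 from the 6 CP arrays alone (14.3% of all). Without 1 array it was 4 to 14 (0.659% to 5.4% of all), with 14 without Xindong20 LP3. Within LP the count of 6 was 2 from the 6 LP arrays alone (0.208% of all) and 2 to 7 without 1 array (0.624% to 1.43% of all), with 3 without Xindong20 LP2 or Xindong23 LP1 and 2 without Xindong23 LP2 or LP3. The cause of these shifts was not tested. With the replicate block the counts were 10 on average (9 shared), 8 at CP and 5 at LP, and Ta_25022_1_S1_x_at lost its call (-0.63, limma adjusted p = 0.0935). Same-numbered arrays deviated together (correlation over 0.1) in 6 of 18 pairs over all probe sets and in 9 of 18 over the 115, so not every pair passed and the numbers were not taken to pair the samples. The highest correlation over all probe sets, 0.76, was between the LP3 arrays of the 2 varieties. Over the 115, the LP arrays of the 2 varieties correlated at 0.19, 0.42 and 0.72 for numbers 1, 2 and 3. The LP minus CP differences of all 53 named probe sets, averaged over varieties, kept their sign and stayed within 1 SD of their values. Where arrays were left out, the selection fixed the sign in advance. With 3 arrays per group the shift could not reach that limit either, so nothing is read from these settings. The average variety difference changed sign in 12 named probe sets, 0 of which were called. Without both LP3 arrays it was 0.0199 for Ta_10301_1_A1_at, 0.0342 for Ta_1514_1_S1_x_at and -0.0965 for TaAffx_111620_2_S1_s_at. It was -0.0011 for Ta_11365_1_A1_at after median centring and 0.0602 for TaAffx_29105_1_S1_at after quantile normalization. Without 1 array it ranged from -0.2306 to 0.0359 for Ta_10301_1_A1_at, -0.037 to 0.089 for Ta_11365_1_A1_at, -0.4612 to 0.3222 for Ta_1514_1_S1_x_at, -0.1924 to 0.3599 for TaAffx_111620_2_S1_s_at and -0.0491 to 0.0368 for TaAffx_29105_1_S1_at. In 7 the sign changed only without 1 array, with ranges of -0.5028 to 0.4272 for Ta_18922_2_S1_at, -0.3202 to 0.1786 for Ta_22768_1_S1_at, -0.4793 to 0.0042 for Ta_24300_1_S1_at and -0.0276 to 0.4866 for Ta_28651_1_S1_at. For Ta_5304_1_S1_x_at the range was -0.0886 to 0.4153, for Ta_5603_1_A1_at -0.3687 to 0.0309 and for TaAffx_12966_1_S1_s_at -0.6274 to 0.0552. Signal over background may limit the 16 probe sets with a dim LP mean in either variety.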
